A study of Rattus norvegicus with 9 samples.

Results

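This account follows 10 genes of xenobiotic and oxidant defence through the weeks in which the rat lung forms its alveoli: the glutathione transferases Gsta4, Gstt1, Gstt3, Gstm1 and Gstp1, the superoxide dismutases Sod1, Sod2 and Sod3, catalase (Cat) and the cytochrome P450 Cyp4b1. A gene was taken where the platform annotation gave it as the only symbol of a probe set, the group of short probes that reports a transcript. All 10 genes were found among 14217 genes measured, each by 1 probe set. Lung fibroblasts were taken from rat pups on postnatal days 2, 7 and 21, which lie before, within and after the growth of the septa that divide the air sacs. Each day had 3 arrays, and each array held RNA pooled from 5 pups of a litter on day 2, or from 4 pups on days 7 and 21. No strain, genotype or treatment is given in the labels. The cells were those that stuck to plastic shortly after enzymatic dispersal of the lung, so a sample could hold any lung cell that adheres quickly. Values are log2 intensities, on which a difference of 1 is a doubling, and levels are compared between days for a gene, never between genes. With 3 arrays to a day, their number sets how precise these values can be.

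Glutathione transferases join the tripeptide glutathione to electrophilic compounds, among them the aldehydes that form when lipids are oxidised, and so make them soluble and fit for export. Superoxide dismutases turn superoxide into hydrogen peroxide, each in its own compartment, and catalase breaks hydrogen peroxide down in peroxisomes. CYP4B1 is a cytochrome P450 found mainly in lung, where it oxidises fatty acids and activates some inhaled or ingested toxicants. The change from fetal to air-breathing life raises the oxygen that lung cells meet, and antioxidant enzymes of the lung are known to be regulated around birth.

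Over all probe sets, correlations were 0.976 to 0.988 within a day and 0.88 to 0.974 between days. Median intensity was 37.9 to 50.4 per array. The fibroblast list (14 of 14 markers measured) averaged log2 9.76 to 10.05 per array on day 2, 10.03 to 10.07 on day 7 and 9.44 to 9.82 on day 21. By limma 1 of its genes was called higher and 0 lower from day 2 to day 7. From day 7 to day 21, 2 were called higher and 4 lower. The macrophage list (22 of 24 measured) was also well expressed and differed between days. The 3′ over 5′ signal of the hexokinase control, a measure of RNA integrity, was log2 0.37 to 0.87 on day 2, 0.56 to 0.91 on day 7 and 1.07 to 1.33 on day 21. The same signal of beta-actin was highest on day 7, at 0.51 to 0.80 on day 2, 0.71 to 1.18 on day 7 and 0.49 to 0.73 on day 21, and that of GAPDH was between -0.11 and 0.25 on all arrays. The part of RNA integrity in the results was not tested. All 10 genes lay above log2 4.25, the 25th percentile of all values, on every array, and 9 of them were among the brightest 25% of probe sets by mean level.

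The genes of this group took separate courses. Gsta4, Gstt1, Gstt3, Cat and Cyp4b1 were higher on day 7 than on the mean of the flanking days, by 1.48-fold for Gstt1 to 4.59-fold for Gstt3. Mitochondrial Sod2 did the opposite and was 1.61-fold lower on day 7. Extracellular Sod3 was 4.03-fold higher on day 21 than on day 2. Gstm1, Gstp1 and Sod1 passed the test in no comparison, although each passed in at least 1 under another setting. The plot of each array's level shows these courses.

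**Figure D1:**
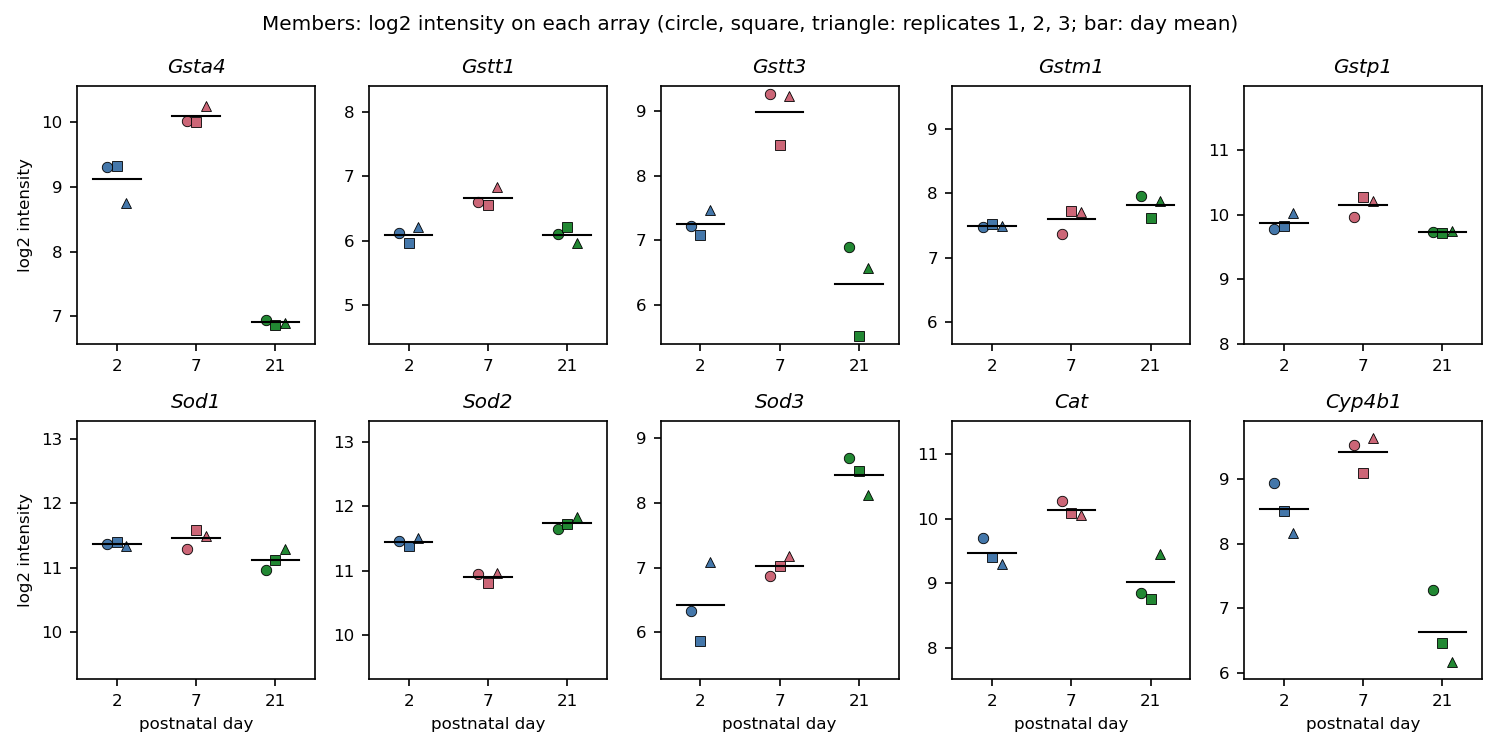
Log2 intensity (vertical axis, 4 log2 units in every panel) of the 10 genes against postnatal day, with 1 point per array and a bar at the mean of the 3 arrays of a day. The day 7 arrays of Gsta4, Gstt3 and Cyp4b1 lie above those of both other days, those of Sod2 lie below, and Sod3 is highest on day 21.

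Gsta4 encodes an alpha-class transferase that acts on 4-hydroxynonenal, a toxic aldehyde of lipid peroxidation. It stood at log2 9.31, 9.32 and 8.75 on the day 2 arrays, 10.01, 10.01 and 10.26 on the day 7 arrays and 6.94, 6.87 and 6.89 on the day 21 arrays. No array of any day overlapped with another day, and day 21 was low on all 3 arrays within a spread of 0.04 (SD, n = 3). Gsta4 rose 1.96-fold from day 2 to day 7 (log2 change 0.97 ± 0.18 SE, limma adjusted p = 0.00654). It then fell 9.14-fold to day 21 (log2 change -3.19 ± 0.18, limma adjusted p = 3.35e-07), the 55th lowest change of the 14217 genes. Day 21 was 4.68-fold below day 2 (log2 change -2.23 ± 0.18, limma adjusted p = 1.03e-05). The rise was called in 9 of 9 fits that left out an array, and so were both falls.

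Gstt3 encodes a theta-class transferase, a class that conjugates small halogenated compounds among others. Its levels were log2 7.23, 7.07 and 7.47 on day 2, 9.27, 8.48 and 9.23 on day 7 and 6.90, 5.51 and 6.57 on day 21. The days did not overlap, although day 21 replicate 2 was more than 1 unit below its day's other arrays. The rise to day 7 was 3.33-fold (log2 change 1.73 ± 0.32 SE, limma adjusted p = 0.00708) and ranked 7th highest of 14217 genes. The fall to day 21 was 6.33-fold (log2 change -2.66 ± 0.32, limma adjusted p = 6.58e-05). Day 21 was below day 2 by a log2 change of -0.93 that missed the threshold (95% interval -1.63 to -0.22, limma adjusted p = 0.0659). Without day 21 replicate 1 that change was -1.22 (adjusted p = 0.0294), and without day 21 replicate 2 it was -0.52 (adjusted p = 0.203).

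Gstt1, the other theta-class member, moved less. It was at log2 6.12, 5.96 and 6.22 on day 2, 6.60, 6.55 and 6.84 on day 7 and 6.11, 6.21 and 5.97 on day 21. The day 7 arrays lay above all others, and days 2 and 21 overlapped. Gstt1 rose 1.48-fold to day 7 (log2 change 0.57 ± 0.15 SE, limma adjusted p = 0.0387) and fell back 1.48-fold to day 21 (log2 change -0.57 ± 0.15, limma adjusted p = 0.0128). The 95% interval of its net change from day 2 to day 21 was -0.33 to 0.33. The call of its rise held in 2 of 9 fits that left out an array, those without day 21 replicate 2 or 3, while the change stayed at 0.48 to 0.63 in all 9. The adjusted p was 0.0835, 0.14 and 0.0612 without day 2 replicates 1, 2 and 3, 0.0851, 0.0715 and 0.11 without day 7 replicates 1, 2 and 3, and 0.0563 without day 21 replicate 1. With each array centred on its median the rise was 0.47 (adjusted p = 0.206) and the fall -0.46 (adjusted p = 0.1).

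Gstm1, a mu-class transferase, and Gstp1, the pi-class enzyme that is widely expressed outside liver, did not pass in any comparison. Gstm1 was at log2 7.48, 7.52 and 7.49 on day 2, 7.37, 7.73 and 7.71 on day 7 and 7.96, 7.62 and 7.88 on day 21. Its day 21 arrays were all above its day 2 arrays, and the net change of 0.32 had a 95% interval of -0.02 to 0.67 (limma adjusted p = 0.177). After a further quantile normalization that change was 0.48 (adjusted p = 0.0441). Gstp1 was at log2 9.78, 9.82 and 10.02 on day 2, 9.97, 10.27 and 10.21 on day 7 and 9.74, 9.72 and 9.75 on day 21. All its day 21 arrays were below all its day 7 arrays, by a log2 change of -0.42 (95% interval -0.74 to -0.10, limma adjusted p = 0.0508) at the edge of the threshold. With day 2 replicate 3 left out the adjusted p was 0.0495, and with day 7 replicate 1 left out the change was -0.51 (adjusted p = 0.0407).

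Cyp4b1 followed the course of Gsta4. Its levels were log2 8.95, 8.52 and 8.18 on day 2, 9.53, 9.09 and 9.64 on day 7 and 7.28, 6.46 and 6.17 on day 21. The 3 days did not overlap. The change to day 7 was 0.88 ± 0.28 SE and missed the threshold (limma adjusted p = 0.0824). It passed without day 21 replicate 1 (adjusted p = 0.0382). The fall from day 7 to day 21 was 6.89-fold (log2 change -2.78 ± 0.28, limma adjusted p = 1.96e-05), and day 21 was 3.75-fold below day 2 (log2 change -1.91 ± 0.28, limma adjusted p = 0.000821). Both falls were called in 9 of 9 fits that left out an array.

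Catalase was at log2 9.70, 9.40 and 9.30 on day 2, 10.27, 10.09 and 10.06 on day 7 and 8.86, 8.76 and 9.45 on day 21. All day 7 arrays were above all others, while day 21 replicate 3 reached into the range of day 2. Cat fell 2.17-fold from day 7 to day 21 (log2 change -1.12 ± 0.20 SE, limma adjusted p = 0.000967). The change from day 2 to day 7 was 0.67 ± 0.20 (95% interval 0.24 to 1.10) and missed the threshold (limma adjusted p = 0.0564). Without day 21 replicate 3, which alters only the shared estimate of spread for this comparison, it passed (adjusted p = 0.023), and the change from day 2 to day 21 moved from -0.45 (adjusted p = 0.141) to -0.66 (adjusted p = 0.0312).

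The superoxide dismutases differed from each other. Sod2, the manganese enzyme of mitochondria, was at log2 11.46, 11.39 and 11.51 on day 2, 10.95, 10.81 and 10.97 on day 7 and 11.65, 11.73 and 11.84 on day 21. Every day 7 array was below every other array. Sod2 fell 1.46-fold to day 7 (log2 change -0.54 ± 0.14 SE, limma adjusted p = 0.0312) and rose 1.77-fold from day 7 to day 21 (log2 change 0.83 ± 0.14, limma adjusted p = 0.000642). The net change of 0.29 from day 2 to day 21 did not pass (95% interval -0.01 to 0.59, limma adjusted p = 0.172). The call of the fall was lost without any 1 array of the days compared, with an adjusted p of 0.078, 0.0733 and 0.0904 without day 2 replicates 1, 2 and 3 and of 0.0803, 0.12 and 0.0535 without day 7 replicates 1, 2 and 3. The change itself stayed at -0.49 to -0.57. The rise to day 21 was called in 9 of 9 such fits.

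Sod3, the copper and zinc enzyme secreted into the matrix of lung and vessels, was at log2 6.33, 5.86 and 7.09 on day 2, 6.86, 7.02 and 7.18 on day 7 and 8.69, 8.50 and 8.12 on day 21. Day 2 was the most uneven day (SD 0.62, n = 3) and overlapped with day 7, while day 21 lay above both. Sod3 rose 2.67-fold from day 7 to day 21 (log2 change 1.42 ± 0.27 SE, limma adjusted p = 0.00166) and was 4.03-fold higher on day 21 than on day 2 (log2 change 2.01 ± 0.27, limma adjusted p = 0.000413). The change from day 2 to day 7 was 0.59 (limma adjusted p = 0.225). It was 0.93 without day 2 replicate 3 (adjusted p = 0.0379) and 0.31 without day 2 replicate 2 (adjusted p = 0.605).

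Sod1, the copper and zinc enzyme of the cytosol, was at log2 11.37, 11.39 and 11.34 on day 2, 11.29, 11.58 and 11.49 on day 7 and 10.97, 11.12 and 11.28 on day 21. All its day 21 arrays were below all others, the nearest pair being 11.28 and 11.29. The change from day 7 to day 21 was -0.33 (95% interval -0.66 to -0.01, limma adjusted p = 0.12; 0.0438 both with an intensity trend in eBayes and with 16 added before log2), and that from day 2 to day 7 was 0.09 (95% interval -0.23 to 0.41, limma adjusted p = 0.81).

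The counts were read against all genes. From day 2 to day 7, 3 of the 10 rose and 1 fell, where 7.02% of the 14217 genes were called higher and 4.41% lower. The arrays of these days did not overlap for 6 of the 10, against 33% of all genes. From day 7 to day 21, 2 rose and 5 fell, where 13.7% of genes were called higher and 24.4% lower, and 9 did not overlap, against 51.2% of genes. From day 2 to day 21, 1 rose and 2 fell, where 8.8% were called higher and 15.3% lower, and 8 did not overlap, against 43%. On day 7 against the mean of the flanking days, 5 were higher and 1 lower, where 20.6% of genes were called higher and 9.93% lower. Bright probe sets were called more often, and among the brightest 25% of probe sets 15.3%, 50%, 31.3% and 40.1% were called in these comparisons in the order given. The median log2 change of the 10 genes was 0.58 to day 7, -0.49 from day 7 to day 21 and -0.19 from day 2 to day 21, beside 0.07, -0.01 and 0.02 for all genes. The comparisons share arrays, so their values are not independent of each other.

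**Figure D2:**
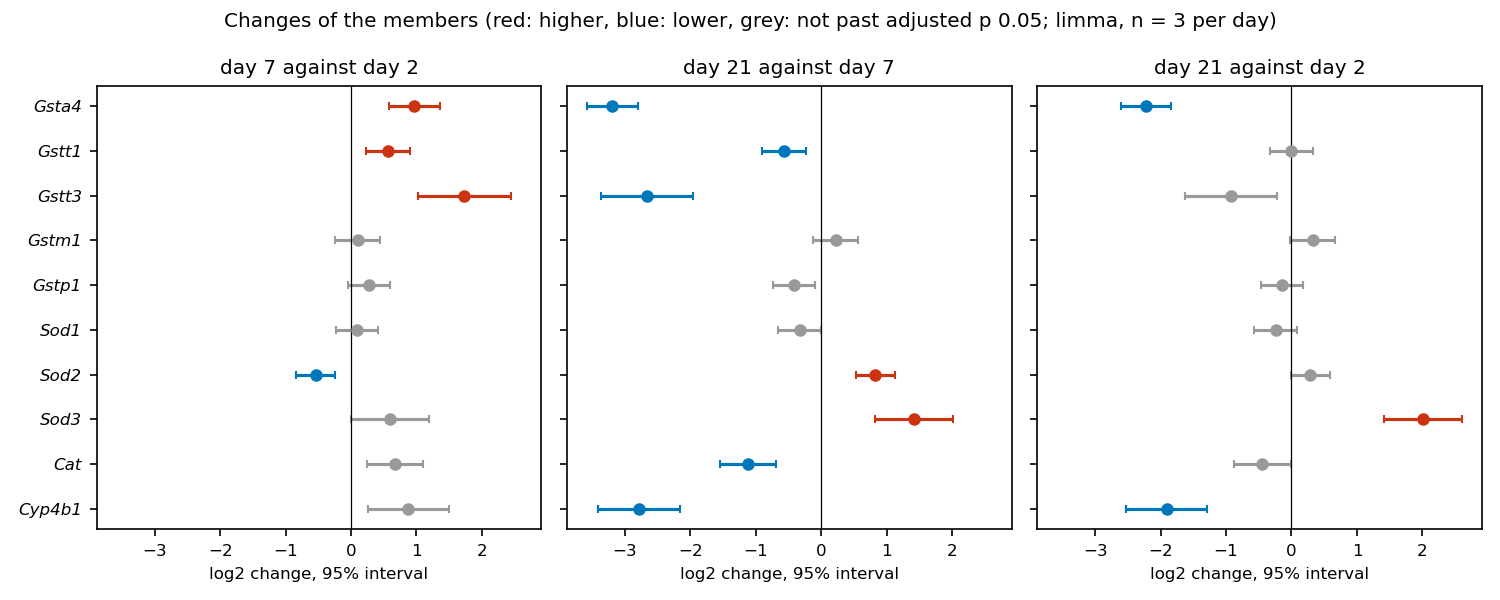
Log2 change of each gene (horizontal axis) with its 95% interval from limma, n = 3 arrays per day, in the 3 comparisons between days. Gsta4, Gstt3 and Cyp4b1 have the largest falls from day 7 to day 21, of 3.19, 2.66 and 2.78 as absolute log2 changes, while Sod2 and Sod3 are the 2 genes that rose in that comparison.

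Promoter sequences from RefSeq (rat build GRCr8, 250 bases before to 50 after the annotated start) matched 8 of the 10 genes by gene number, all but Gstt1 and Sod3. They are shown for Gsta4, Gstt3 and Cyp4b1, which shared the largest day 7 excess, and for Sod2, which moved the other way. The core of the antioxidant response element, the site through which NRF2 is known to act on many transferase genes, was searched as TGACNNNGC on both strands and is in capitals. The Gsta4 window is at chr8:87947015-87947314 (+ strand), that of Gstt3 at chr20:12874368-12874667 (+), that of Cyp4b1 at chr5:134393067-134393366 (- strand) and that of Sod2 at chr1:50050119-50050418 (-).
Gsta4: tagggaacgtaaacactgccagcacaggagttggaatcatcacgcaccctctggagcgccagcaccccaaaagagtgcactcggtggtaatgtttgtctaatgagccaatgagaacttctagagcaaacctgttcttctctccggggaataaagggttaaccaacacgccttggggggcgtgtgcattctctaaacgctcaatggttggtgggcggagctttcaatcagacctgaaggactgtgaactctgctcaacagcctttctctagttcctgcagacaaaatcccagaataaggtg
Gstt3: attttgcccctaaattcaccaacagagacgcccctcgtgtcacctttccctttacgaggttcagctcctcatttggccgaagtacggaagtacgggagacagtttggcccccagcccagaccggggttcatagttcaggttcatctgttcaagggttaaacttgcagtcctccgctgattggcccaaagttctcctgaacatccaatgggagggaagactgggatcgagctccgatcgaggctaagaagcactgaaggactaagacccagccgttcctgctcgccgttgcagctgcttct
Cyp4b1: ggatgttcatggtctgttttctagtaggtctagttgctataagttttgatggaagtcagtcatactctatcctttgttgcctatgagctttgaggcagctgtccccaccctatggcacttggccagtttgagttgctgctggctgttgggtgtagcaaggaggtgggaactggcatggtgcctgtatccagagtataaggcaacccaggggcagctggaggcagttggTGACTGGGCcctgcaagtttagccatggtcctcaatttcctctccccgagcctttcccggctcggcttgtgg
Sod2: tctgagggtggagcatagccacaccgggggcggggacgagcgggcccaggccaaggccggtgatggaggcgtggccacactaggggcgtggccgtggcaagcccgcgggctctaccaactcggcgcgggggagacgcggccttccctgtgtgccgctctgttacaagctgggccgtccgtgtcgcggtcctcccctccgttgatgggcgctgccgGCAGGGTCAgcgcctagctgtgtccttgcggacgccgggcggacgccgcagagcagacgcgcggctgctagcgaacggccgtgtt
The core was present in 3 of the 8 windows and in 12.1% of 33465 rat promoters of the same length. Gstp1 held it as TGACTCAGC from 61 to 53 bases before the start, overlapping the AP-1 motif TGANTCA, which 7.33% of promoters hold. Cyp4b1 held it as TGACTGGGC from 22 to 14 bases before the start, and Sod2 held TGACCCTGC on the reverse strand from 35 to 27 bases before the start. The Gsta4 and Gstt3 windows held no match to it. Such short matches describe the letters of the window and nothing about binding.

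Markers of other cells moved over the same days. In bulk RNA, fewer cells of a type and less RNA per cell cannot be told apart. Macrophage markers had a mean of log2 9.17 to 9.34 on the day 2 arrays, 7.25 to 8.06 on day 7 and 9.39 to 9.99 on day 21. By limma 16 of its 22 genes were lower on day 7 than on day 2 and 21 were higher on day 21 than on day 7, with 1 gene below log2 4.25 on average. That is the direction of Sod2 and the reverse of the course of Gsta4, Gstt3, Gstt1, Cat and Cyp4b1. When each array's macrophage mean entered the limma fit, none of the 10 genes was called from day 2 to day 7 or from day 7 to day 21. That fit called few features of any kind: of 31042 probe sets, 0 were higher and 0 lower to day 7, and 8 were higher and 23 lower from day 7 to day 21, against 3419 and 5920 without the covariate. The missing calls are therefore no result about the 10 genes. At an unadjusted p under 0.05, 2 of the 10 were higher and 0 lower to day 7, and 1 higher and 3 lower from day 7 to day 21. Of the 31042 probe sets, 2263 were higher and 1450 lower at that threshold to day 7. From day 7 to day 21 these counts were 1374 and 2420. The fall of Gsta4 from day 7 to day 21 was then -2.71 with an SE of 0.52, against 0.18 without the covariate (adjusted p = 0.0873), and that of Gstt1 became 0.06 (adjusted p = 0.968). Between days 21 and 2, where the macrophage list differed less, the covariate left the calls of Gsta4 (-2.12, adjusted p = 0.000149), Cyp4b1 (-1.68, adjusted p = 0.00794) and Sod3 (2.15, adjusted p = 0.00214) in place.

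The endothelial list (14 of 15 measured) went the way of Gsta4 and Cyp4b1, at log2 6.20 to 6.60 on day 2, 6.74 to 7.05 on day 7 and 5.38 to 5.79 on day 21. By limma 3 of its 14 genes rose to day 7 and 11 fell to day 21, and none lay below log2 4.25 on average. With its mean as a covariate, a setting chosen after the data were seen, Gstt3 was called higher on day 7 than on day 2 (2.73, adjusted p = 0.028). From day 7 to day 21 limma then called none of the 10 genes, with 0 higher and 4 lower at an unadjusted p under 0.05. Over all 31042 probe sets that fit called 29 higher and 28 lower, so this loss is not about the 10 genes either. At an unadjusted p under 0.05, 1350 of these probe sets were higher and 1595 lower. Gsta4 was lower by -2.46 (adjusted p = 0.0416) and Sod3 higher by 1.55 (adjusted p = 0.427) on day 21 than on day 2. Over all probe sets the fit called 72 higher and 149 lower in that comparison, against 2118 and 3773 without the covariate. The lost calls of Sod3 and Cyp4b1 there are therefore no result about these genes.

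Club cells of the airways are a known site of Cyp4b1 in lung. Of 13 airway markers measured (of 15), limma called 0 higher and 2 lower to day 7, with a median change of 0.01. From day 7 to day 21 it called 3 higher and 1 lower, with a median change of 0.16. Scgb1a1, the main secretory protein of club cells, was at log2 9.71, 10.37 and 9.95 on day 2, 7.91, 8.06 and 7.00 on day 7 and 10.42, 11.37 and 10.64 on day 21. Scgb1a1 was lowest on day 7. The brightest marker of the list was Tubb4b. Its levels were log2 10.92 to 11.01 on day 2, 10.55 to 10.99 on day 7 and 10.62 to 10.79 on day 21. The list as a whole (4 markers below log2 4.25 on average) spanned 4.98 to 5.60 over the 9 arrays. The part of airway cells in the level of Cyp4b1 was not tested.

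Among the remaining lists, mast cell markers (12 of 13 measured, 4 below log2 4.25) were at 3.96 to 4.33 on day 2, 3.86 to 4.22 on day 7 and 5.35 to 6.80 on day 21. Neutrophil markers (10 of 13, 3 below) were at 6.08 to 7.10, 4.22 to 4.90 and 4.89 to 5.88. Lymphocyte markers (13 of 15, 6 below) were at 4.06 to 4.47, 4.22 to 4.56 and 4.70 to 5.03. Mast cell and lymphocyte markers were highest on day 21, and neutrophil markers were highest on day 2. Type 2 cell markers (11 of 11, 1 below) were at 5.61 to 5.97, 5.64 to 6.21 and 5.96 to 6.11. Type 1 cell markers (7 of 8, 2 below) were at 6.99 to 7.04, 7.08 to 7.27 and 6.77 to 6.89. Mesothelial markers (8 of 9, 1 below) were at 6.05 to 6.48, 5.28 to 6.14 and 5.88 to 7.08, and erythroid markers (9 of 14, 0 below) at 6.11 to 6.42, 5.69 to 6.55 and 5.99 to 6.15. The part of these cells in the levels of the 10 genes was not tested.

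**Figure D3:**
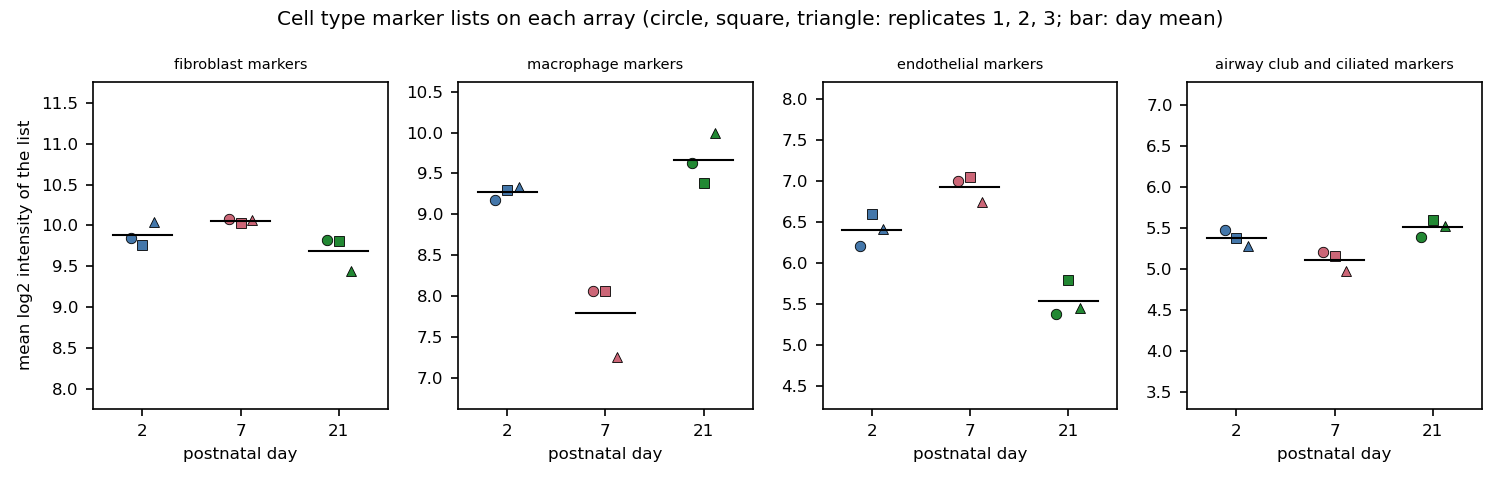
Mean log2 intensity of 4 marker lists (vertical axis, 4 log2 units in every panel) on each array against postnatal day, with a bar at the mean of the 3 arrays of a day. The macrophage list is lowest on day 7 (7.25 to 8.06) and the endothelial list is highest there (6.74 to 7.05). The fibroblast list lies between 9.44 and 10.07, with every day 21 array (9.44 to 9.82) below every day 7 array (10.03 to 10.07).

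The other glutathione transferases and related membrane enzymes did not move as a block. Of 18 measured, 1 rose and 2 fell to day 7 and 3 rose and 7 fell from day 7 to day 21 (median log2 change 0.17 and 0.01, beside 0.07 and -0.01 for all genes). The counts of this list and those below stand beside the shares of all genes called. These were 7.02% higher and 4.41% lower to day 7, and 13.7% and 24.4% from day 7 to day 21. From day 2 to day 21 they were 8.8% and 15.3%. These shares hold for an adjusted p under 0.05. At an unadjusted p under 0.05, limma gave 4246 of 31042 probe sets higher and 2553 lower to day 7. The unadjusted counts to day 7 of the glutathione, peroxisome and copper lists below are to be read beside these. Gstz1, which also works in tyrosine breakdown, rose by 0.77 to day 7 (limma adjusted p = 0.032) and fell by 2.05 on the log2 scale to day 21 (limma adjusted p = 1.3e-05). Gstt2, the third theta-class gene measured, fell by 1.34 to day 21, and Gstk1, of mitochondria and peroxisomes, by 1.17. Gstt2 and Gstk1 are named here after their values were seen. The risers from day 7 to day 21 were Mgst2, a microsomal enzyme of leukotriene synthesis (2.13), and the prostaglandin synthases Hpgds (1.80) and Ptges (1.30). Hpgds and Ptges had fallen to day 7, by 1.19 and 0.95 on the log2 scale. Over the same days the macrophage list fell and then rose, and its part in Mgst2, Hpgds and Ptges was not tested. From day 2 to day 21, 2 rose and 4 fell, among them Mgst2 (1.10) and Mgst3 (-0.94).

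Called genes of glutathione synthesis, breakdown and recycling were mostly low on day 7, when Gsta4 and Gstt3 were high. Of 23 measured, 0 rose and 11 fell to day 7 (limma, with 1 higher and 11 lower at an unadjusted p under 0.05), and 11 rose and 4 fell from day 7 to day 21, with medians of -0.38 and 0.36. Slc7a11, the cystine importer that limits glutathione synthesis, fell by 2.57 on the log2 scale to day 7 (limma adjusted p = 0.000516) and rose by 3.81 to day 21 (limma adjusted p = 1.24e-06). Gclc, the catalytic subunit of the first enzyme of synthesis, rose by 2.27 from day 7 to day 21 (limma adjusted p = 7.16e-07). Chac1, which degrades glutathione, fell by 2.01 to day 7. The aminopeptidase Anpep, which cleaves the cysteinylglycine left by glutathione breakdown, fell by 1.68 and then rose by 2.76. Slc7a11 (1.24) and Anpep (1.08) ended above day 2, and the dipeptidase Dpep1 ended below it (-1.36). The macrophage list moved the same way over the same days, and its part in these genes was not tested.

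Genes of peroxide removal were split. Of 23 measured, 3 rose and 3 fell to day 7 and 7 rose and 9 fell from day 7 to day 21 (medians 0.10 and 0.15). Srxn1, which repairs overoxidised peroxiredoxins, fell by 2.51 on the log2 scale to day 7 (limma adjusted p = 7.55e-05) and rose by 2.97 to day 21 (limma adjusted p = 4.51e-07). Prdx5, a peroxiredoxin of mitochondria and peroxisomes, fell by 1.15 and rose by 1.47. The macrophage list moved the way of Srxn1 and Prdx5 over the same days, and its part in them was not tested. Msrb2, a mitochondrial methionine sulfoxide reductase, rose by 0.79 to day 7. Gpx7, of the endoplasmic reticulum, fell by 1.52 from day 7 to day 21. From day 2 to day 21, Gpx7 (-0.98) and Prdx2 (-0.97) were lower and Gpx3, the secreted glutathione peroxidase, was higher (0.98).

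Catalase works in peroxisomes, and 26 peroxisome genes were measured. Of these, 3 rose and 0 fell to day 7 (limma, with 8 higher and 1 lower at an unadjusted p under 0.05), and 2 rose and 11 fell from day 7 to day 21 (medians 0.27 and -0.33). At that unadjusted threshold, 4246 of all 31042 probe sets were higher and 2553 lower to day 7. Phyh and Hacl1, enzymes of the breakdown of branched fatty acids, rose by 0.98 and 0.82 to day 7, and Scp2, a lipid carrier and thiolase, rose by 0.95. Scp2 then fell by 1.88 on the log2 scale (limma adjusted p = 2.9e-05), Phyh by 1.62 and Pecr by 1.32. Pex13 (-1.09), Abcd3 (-0.94) and Scp2 (-0.94) were lower on day 21 than on day 2.

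Sod1 and Sod3 need copper, and 12 genes of copper supply and storage were measured. Of these, 0 rose and 3 fell to day 7 (limma, with 1 higher and 5 lower at an unadjusted p under 0.05), and 3 rose and 1 fell from day 7 to day 21 (medians -0.23 and 0.03). Ccs, the chaperone that loads Sod1, fell by 1.41 on the log2 scale from day 7 to day 21 (limma adjusted p = 3.97e-05) and was 0.94 lower than on day 2 (log2 change -0.94). The copper transporter Slc31a2 fell by 1.21 to day 7 and rose by 1.78 to day 21, the metallothionein Mt2A fell by 0.98 and rose by 1.77, and Cox17, a chaperone for cytochrome oxidase, fell by 0.88 to day 7. The macrophage list also fell to day 7 and rose to day 21, and its part in these genes was not tested.

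A list of superoxide producing oxidases, with their subunits and partner proteins, had 12 genes measured. To day 7, 1 rose and 3 fell (median -0.16). From day 7 to day 21, 7 rose and 1 fell (median 1.42). Cybb and Rac2, parts of the phagocyte oxidase, fell by 1.78 and 1.75 on the log2 scale to day 7, and Rac2 and Ncf4, another of its parts, rose by 2.34 and 2.19 to day 21. These are genes that macrophages express, and the macrophage list moved with them. Nox4, an oxidase of fibroblasts and muscle cells, took the other course with a rise of 1.17 to day 7 (limma adjusted p = 0.00477). Aox1 (2.19) and Xdh (1.42), cytosolic oxidases that carry molybdenum, were higher on day 21 than on day 2. Aox1 was near the low end on day 2, at log2 3.47, 4.27 and 3.90.

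Of 37 other cytochromes P450 and their partner oxidases, 5 rose and 2 fell to day 7 and 9 rose and 6 fell from day 7 to day 21 (medians 0.12 and 0.06). Cyp2u1, a fatty acid hydroxylase, had the course of Cyp4b1, with a rise of 1.25 to day 7 (limma adjusted p = 0.002) and a fall of 3.15 on the log2 scale to day 21 (limma adjusted p = 3.35e-07). Ephx2, the soluble epoxide hydrolase, rose by 1.26 and fell by 1.67. Cyp1a1, a target of the aryl hydrocarbon receptor, fell by 1.34 to day 7. Por, the reductase that passes electrons to microsomal P450 enzymes including CYP4B1, ran the opposite way to Cyp4b1 from day 7 to day 21, with a rise of 1.75 (limma adjusted p = 6.18e-05). Cyp2j3 was higher on day 21 than on day 2 (1.96), from day 2 levels below log2 4.25, and Cyp2u1 (-1.90) and Cyp7b1 (-1.57) were lower. Cyp7b1 was below log2 4.25 on all day 21 arrays, so the size of its change is uncertain.

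**Figure D4:**
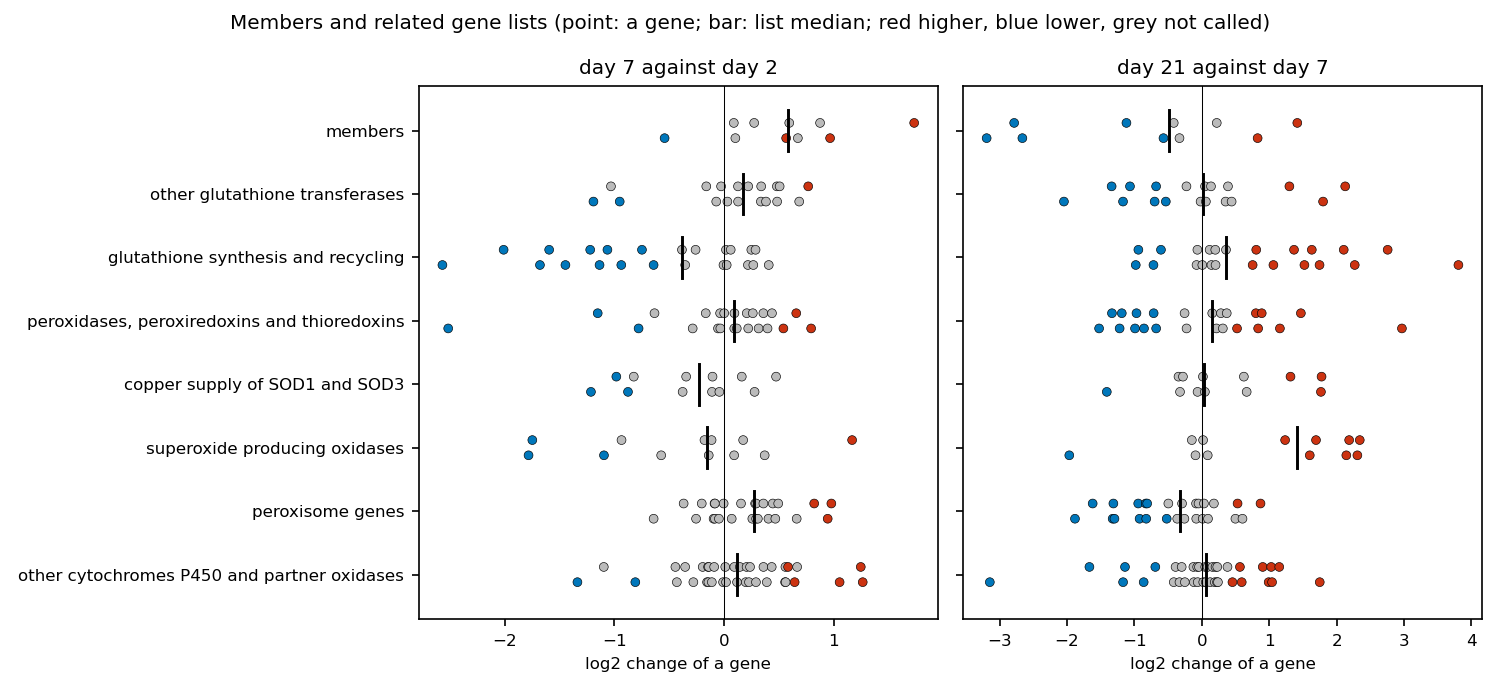
Log2 change of each gene (horizontal axis) of the 10 and of the 7 related lists, from day 2 to day 7 and from day 7 to day 21. Points are genes, bars are list medians, and colour gives the limma call. The glutathione synthesis and recycling list, which includes breakdown enzymes such as Chac1, has 11 falls and then 11 rises, while the peroxisome genes have 3 rises and then 11 falls.

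For the 5 genes whose day means differed by at least 1, the genes of most like course were sought by Pearson correlation over the 9 arrays. The candidates were 2838 genes whose day means also differed by at least 1. The correlation does not compare the size of the changes, so a matched gene can move less than the gene it matches. These correlations describe a match of day means above all, since the days separate the arrays. Gsta4 was matched best by Esd (r = 0.998), Dek (0.996) and Hmgn1 (0.995). Gstt3 was matched by Pdlim2 (0.965), Hsbp1 (0.964) and Ccdc28b (0.96), and Cyp4b1 by Kctd20 (0.991), Stard9 (0.989) and Rev3l (0.988). Cat was matched by Suox (0.975), Mmadhc (0.971) and Vps41 (0.97). Sod3 was matched by Prelp, a proteoglycan of connective tissue (0.991), Wfdc1 (0.977) and Entrep1 (0.971). Prelp was at log2 6.12, 6.80 and 8.26 as means of days 2, 7 and 21.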

How the data were processed

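The authors deposited linear probe set intensities of 9 arrays. The submitters' processing notes name affy and RMA, whose versions and filters were not given in the sources used here. RMA corrects background, normalizes and combines the probes of a set. Changes of dim sets can be understated in such values, which was not tested here. Here log2 was taken, 57 control probe sets were left out of 31099, and 31042 were tested with limma 3.58.1 in R 4.3.3 (a mean per day over 9 arrays, lmFit and eBayes with default settings, two-sided, 6 residual and 5.69 prior degrees of freedom), with Benjamini-Hochberg adjustment over all probe sets tested and calls at an adjusted p under 0.05. The litters differ within a day, so p-values measure the spread between litters.

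A gene is its brightest probe set with 1 symbol (20826 probe sets had 1, 436 several and 9780 none), and which transcripts of a family the probes match was not examined. The members and lists were chosen with earlier results of these data known. From each of 7 related lists (151 of 180 genes measured), up to 3 called genes of largest change without overlap of the days were named per comparison; 11 marker lists (133 of 151 measured) describe other cells. Lists are given by counts and medians. Fits used 18 alternatives, and the procedure was tested on simulated data.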

Additional observations from a re-analysis of the deposited data

How the results depend on the processing

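No called change of the 10 genes changed direction when arrays were left out, quantile-normalized, centred or blocked, and only 1 did under a covariate: the fall of Gstt1 from day 7 to day 21 became 0.0579 with the macrophage list as a covariate. Leaving out 1 array in turn gave 2 to 4 genes higher and 0 to 1 lower from day 2 to day 7, 2 and 5 to 6 from day 7 to day 21, 1 and 2 to 3 from day 2 to day 21, and 5 and 1 on day 7 against the flanking days. Centring each array on its median left 0 lower on day 7 than on day 2, since Sod2 was then at an adjusted p of 0.0544. From day 2 to day 21, 2 genes were higher after a further quantile normalization (Gstm1 besides Sod3) and also with 16 added to the intensities before log2 (Sod2 besides Sod3). An intensity trend in eBayes gained Cat to day 7 (adjusted p = 0.028), Gstp1 (0.0199) and Sod1 (0.0438) from day 7 to day 21, Gstt3 from day 2 to day 21 (0.0463) and Gstp1 on day 7 against the flanking days (0.0308), and lost Gstt1 to day 7 (0.0607). With the macrophage covariate limma called 0 genes higher and 0 lower from day 2 to day 7, from day 7 to day 21 and on day 7 against the flanking days, where at an unadjusted p under 0.05 the last had 3 higher and 0 lower. With the endothelial covariate the counts were 1 higher and 0 lower from day 2 to day 7, 0 and 0 from day 7 to day 21, 0 and 1 from day 2 to day 21, and 1 and 0 on day 7 against the flanking days. Over all probe sets limma called 0 higher and 0 lower from day 2 to day 7 with the first (2263 and 1450 at an unadjusted p under 0.05) and 29 and 90 with the second, against 1707 and 1068 with neither. From day 7 to day 21 it called 8 and 23, 29 and 28, and 3419 and 5920 in that order. From day 2 to day 21 the second gave 72 and 149, against 2118 and 3773 with neither. On day 7 against the flanking days the first gave 0 and 0 (2156 and 1271 at an unadjusted p under 0.05). There the second gave 28 and 41, against 4851 and 2451 with neither. Of the probe sets called, 61.5%, 36.6% and 36% were higher in the 3 comparisons between days as deposited, 53.5%, 48.5% and 47.3% after quantile normalization and 41.5%, 48% and 39.6% with arrays centred, which moved the median change of all probe sets from 0.02 to 0.13 from day 7 to day 21.

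The labels do not say whether a litter number marks the same litter on different days. Same-numbered arrays of different days had deviations from the day means that correlated at -0.237 to 0.405, above 0.1 in 2 of 9 pairs, so the numbers were not taken to pair the arrays; between days 2 and 7 the 3 values were 0.405, 0.0766 and 0.223. With the litter number as a replicate block the counts of the 10 genes were 3 higher and 1 lower, 2 and 5, 1 and 3, and 5 and 1 in the order above. The call of Gstt1 from day 2 to day 7 was lost (adjusted p = 0.0635), and Cyp4b1 in that comparison (adjusted p = 0.0422) and Gstt3 from day 2 to day 21 (adjusted p = 0.0143) were gained. The mean over several probe sets was not run, because each of the 10 genes has 1.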
